A study of Mus musculus with 18 samples.

Results

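The genes described here were 5 receptors of the TNF receptor family and 3 proteins that act beneath them: the receptors Fas, Tnfrsf10b, Tnfrsf1a, Tnfrsf12a and Tnfrsf21, the adaptor Fadd, the protease Casp8 and the regulator Cflar. They were taken by gene symbol from a table of read counts with 32699 symbols, and the counts of all transcript models with the same symbol were summed. All 8 passed the filter on low counts and were tested among 12145 genes. The counts came from PyMT-BO1 cells, a mouse breast cancer line described by the submitters as luminal B-like, of C57BL/6 background. In every group, controls included, the cells lacked their own integrin β3. One line carried the empty retroviral vector pMx, another the signalling-deficient mutant Δβ3 and the last the functional human integrin hβ3. Each line was exposed for 24 h to the solvent DMSO or to 10 nM docetaxel, a taxane that stabilises microtubules, with 3 cultures for each of the 6 groups. The labels give 1 line per construct and do not say whether a line was a clone, so p-values measure the spread between cultures of 1 line.

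Death receptors carry a death domain in their cytoplasmic tail. When ligand clusters Fas or Tnfrsf10b, the domain recruits the adaptor Fadd, which binds procaspase-8 and brings its molecules close enough to cleave each other; active caspase-8 then cleaves the executioner caspases. Cflar (c-FLIP) resembles caspase-8, joins the same complex and restrains its activation. Tnfrsf1a, the main receptor for TNF, first signals to NF-kB and to survival genes, and reaches Fadd and caspase-8 through a later complex. Tnfrsf12a (Fn14) binds TWEAK and has no death domain, and Tnfrsf21 (DR6) is a death domain receptor studied mainly in neurons and lymphocytes.

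Promoter sequences are shown for Fas and Fadd because they were the members whose RNA changed with docetaxel. Each is the 250 bases before the RefSeq start on GRCm38.p6, the assembly of mm10, written along the gene's own strand.
Fas, chr19:34290409-34290658, plus strand: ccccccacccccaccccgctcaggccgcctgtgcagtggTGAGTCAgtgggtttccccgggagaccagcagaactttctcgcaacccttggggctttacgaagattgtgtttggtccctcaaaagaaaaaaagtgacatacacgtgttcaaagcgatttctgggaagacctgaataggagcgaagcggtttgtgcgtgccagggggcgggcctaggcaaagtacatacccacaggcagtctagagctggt
Fadd, chr7:144582442-144582691, minus strand: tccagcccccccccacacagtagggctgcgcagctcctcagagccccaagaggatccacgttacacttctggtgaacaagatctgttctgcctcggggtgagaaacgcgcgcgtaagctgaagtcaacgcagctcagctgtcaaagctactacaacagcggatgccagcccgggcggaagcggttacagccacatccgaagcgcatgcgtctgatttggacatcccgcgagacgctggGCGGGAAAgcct
The capitals in Fas mark TGAGTCA, a match to the AP-1 motif TGANTCA that begins 211 bases before the start. The capitals in Fadd mark GCGGGAAA, the reverse complement of the E2F motif TTTCCCGC, beginning 12 bases before the start and overlapping a GC box (GGGCGG). Of 32851 promoters of the same length, 6.75% held the AP-1 motif, 0.895% the E2F motif and 32.7% a GC box, counting both strands. The 6 motifs searched were chosen after the sequences had been seen, and a match is a description of letters, not a binding site. The table matched 7 of the 8 members. Neither the p53 motif, which 7.13% of all promoters held, nor the NF-kB motif, held by 7.25%, matched in any of those 7 windows. The interferon regulatory factor core AANNGAAA, held by 21.3% of promoters, matched in 3 of the 7: at 2 places in Casp8, once in Tnfrsf21 and once in Fas, where AAAAGAAA begins 130 bases before the start. Tnfrsf12a held 5 GC boxes.

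Library totals ranged from 7.973 to 18.96 in units of 1e+06 counts. Counts assigned to Itgb3 were 0.322 to 1.30 per 1e+06 counts after TMM scaling (CPM) in pMx, 32.9 to 113.5 in Δβ3 and 72.2 to 130.6 in hβ3, so that it was near 0 in the empty-vector line alone. The summed level of 22 heart muscle markers, of which Nppb alone had no count, was 176.4 to 2267 CPM in 16 libraries, 5398 in Δβ3 DMSO replicate 1 and 45160 in Δβ3 docetaxel replicate 2. These 2 libraries also held the highest sums of fibroblast, leukocyte and endothelial markers. The ribosomal precursor Rn45s took 41.5% of the counts of Δβ3 DMSO replicate 1 and 23.6% of those of Δβ3 docetaxel replicate 2. Among the other 16 libraries it took 10.9% to 33% in hβ3, where DMSO replicate 3 was highest, 6.59% to 9.81% in pMx and at most 10% in Δβ3. Luminal epithelial markers summed to 1982 to 3418 CPM in the other 16 libraries and to 1194 in Δβ3 docetaxel replicate 2, with Gata3 at 0 counts throughout and 4 of the 13 markers high enough to test. Tests are therefore given for 18 libraries and, where a call or a count of calls changed, also for the 16 left without those 2; the biological coefficient of variation was 36.1% and 13.2% in the respective fits.

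Docetaxel raised Fas and lowered Fadd when the 3 lines were averaged, and the other 6 members passed no test (edgeR quasi-likelihood test, Benjamini-Hochberg adjusted p under 0.05). Fas increased 3.87-fold, a log2 change of 1.95 ± 0.26 (SE, adjusted p = 6.89e-05). Fadd decreased 1.47-fold, a log2 change of -0.55 ± 0.11 (adjusted p = 0.00234). Of all genes tested, 15.6% were called in this comparison, 7.9% higher and 7.67% lower, so that 2 called members among 8 is near the background; with 16 libraries the same 2 members were called, when 30.1% of all genes were. The median log2 change was 0.09 over the 8 members and 0.06 over all genes tested. The summed level of 11 leukocyte and macrophage markers, of which Adgre1 had no count and 4 were tested, was also higher with docetaxel: 39.4 to 45.86 CPM in DMSO and 49.31 to 57.98 in docetaxel in pMx, 33.28 to 42.72 and 50.61 to 51.73 in hβ3, and 38.33 to 77.76 and 57.72 to 234.3 in Δβ3. The ranges overlapped in Δβ3 alone, where the 2 libraries rich in heart markers held 77.76 CPM in DMSO and 234.3 in docetaxel. The other Δβ3 libraries held 38.33 and 47.41 CPM in DMSO and 57.72 and 62.6 in docetaxel, without overlap. The part of these markers in the member values was not tested. In these bulk cultures fewer cells of a type and less RNA per cell cannot be told apart.

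**Figure D1:**
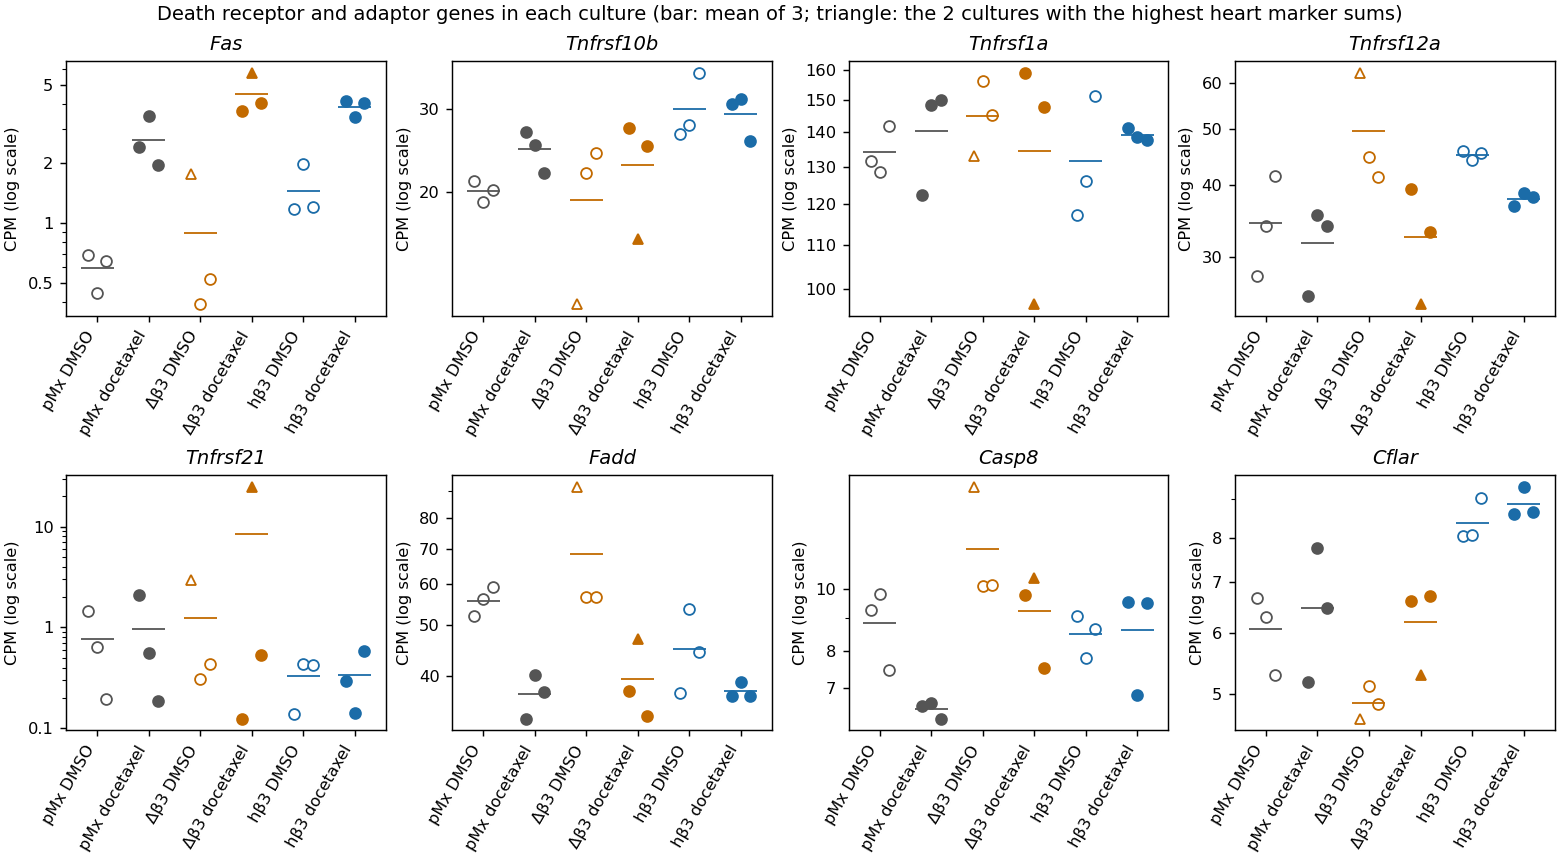
Level of each gene in each culture, in CPM on a log axis, with open symbols for DMSO, filled symbols for docetaxel, a bar at the mean of 3 cultures and triangles for the 2 libraries with the highest heart marker sums. The Fas cultures with docetaxel lie above the DMSO cultures of the same line in all 3 lines, and the Tnfrsf21 triangle at 24.86 CPM stands above every other culture.

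Fas is the receptor of Fas ligand, and its gene lies on chromosome 19 from 34290666 to 34327772 on the plus strand (mm10). In pMx its level was 0.692, 0.446 and 0.645 CPM in DMSO and 2.43, 3.46 and 1.97 CPM in docetaxel. In Δβ3 it was 1.78, 0.388 and 0.519 CPM in DMSO and 3.68, 5.75 and 4.03 CPM in docetaxel. In hβ3 it was 1.18, 1.98 and 1.21 CPM in DMSO and 4.15, 3.42 and 4.04 CPM in docetaxel. Every docetaxel culture was above every DMSO culture of its own line. Of all genes tested, 17.4% showed that in pMx, 9.16% in Δβ3, 14.9% in hβ3 and 2.52% in all 3 lines. The highest DMSO value in Δβ3 and the highest docetaxel value of all came from the 2 libraries rich in heart markers.

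These levels rest on few reads: 516 counts were assigned to Fas over the 18 libraries, from 5 to 59 in a library. A transcript model of 1486 bases held 95.3% of them. Ordered by mean level, the groups ran from pMx DMSO at 0.594 ± 0.131 CPM (SD, n = 3), through Δβ3 DMSO at 0.894 ± 0.767, hβ3 DMSO at 1.46 ± 0.458, pMx docetaxel at 2.62 ± 0.762 and hβ3 docetaxel at 3.87 ± 0.394, to Δβ3 docetaxel at 4.49 ± 1.11. Each neighbouring pair in that order overlapped in range.

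Within lines, Fas rose in pMx by 2.12 ± 0.46 on the log2 scale (adjusted p = 0.0154) and in Δβ3 by 2.33 ± 0.45 (adjusted p = 0.00697). The fitted log2 change in hβ3 was 1.40 ± 0.42, which did not pass (adjusted p = 0.164). With 16 libraries Fas was called in each line: 2.12 ± 0.35 in pMx (adjusted p = 4.41e-05), 3.08 ± 0.47 in Δβ3 (1.83e-05) and 1.41 ± 0.28 in hβ3 (0.00111). The call in pMx was lost when any of its 3 DMSO cultures or docetaxel replicate 2 was left out, the largest adjusted p over 26 other settings being 0.102. The call in Δβ3 was lost when only the Δβ3 groups were fitted (adjusted p = 0.536). That setting called 0 of all genes in Δβ3, so the loss was not particular to Fas. The averaged rise was called in all 25 other settings, with log2 changes from 1.83 to 2.28.

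The share of all genes called differed widely between the lines, at 3.62% in pMx, 6.87% in Δβ3 and 1.16% in hβ3 with 18 libraries. With 16 libraries it was 21.3%, 11.3% and 12.5%. The response of Fas was not shown to differ between lines. Its log2 response in hβ3 minus that in pMx was -0.72 ± 0.63 (95% interval -2.04 to 0.60, adjusted p = 1), and in hβ3 minus Δβ3 it was -0.93 ± 0.62 (-2.24 to 0.37, adjusted p = 0.626). With 16 libraries the second of these was -1.66 ± 0.55 (-2.79 to -0.53, adjusted p = 0.198). No member was called by edgeR for a difference in response with 18 libraries, when 0.0165% of all genes were called for hβ3 minus pMx, 0.0412% for hβ3 minus Δβ3 and 0% for Δβ3 minus pMx, and no member had an unadjusted p under 0.05. DESeq2 called no member for any of these differences, when it called 25 genes for hβ3 minus pMx, 37 for hβ3 minus Δβ3 and 0 for Δβ3 minus pMx. With edgeR none was called with 16 libraries either, when 2.3%, 0.591% and 0% of all genes were; there 1 member had an unadjusted p under 0.05 for hβ3 minus pMx and 2 for hβ3 minus Δβ3. With 18 libraries the intervals of Fas and Tnfrsf21 still include differences of more than 1 log2 unit for each pair of lines. Those of Tnfrsf1a and Cflar do so for no pair, and those of the other members for some pairs.

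**Figure D2:**
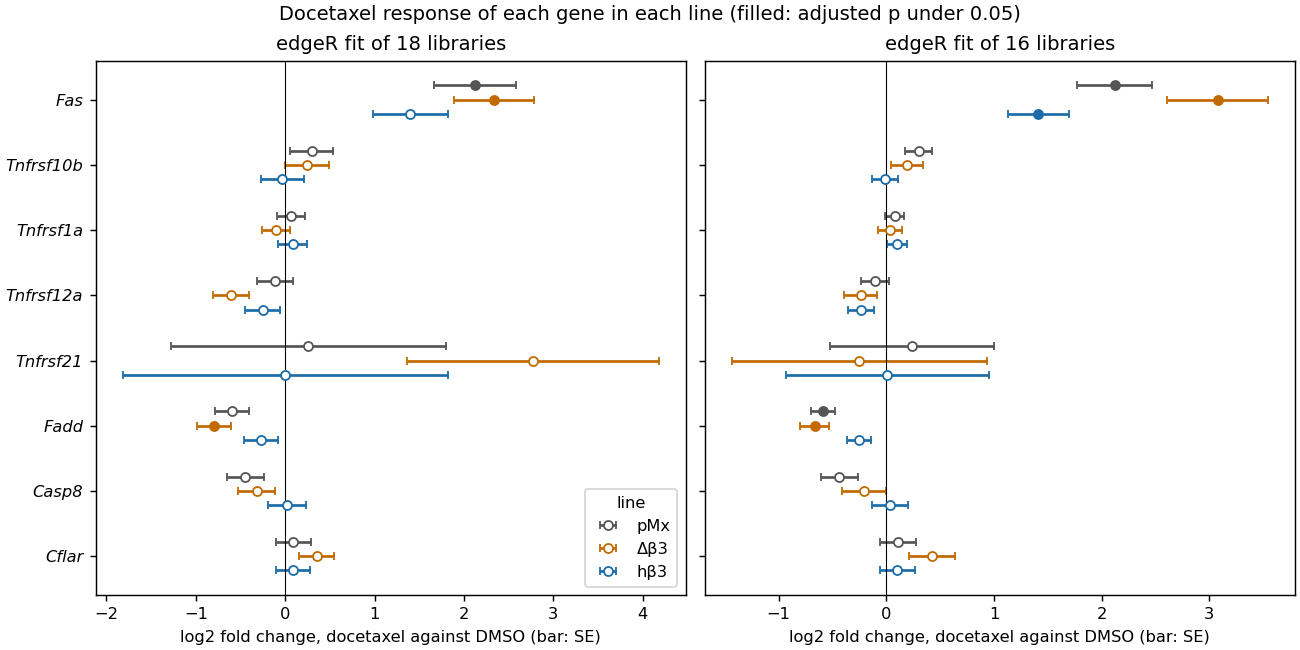
Log2 fold change of each gene between docetaxel and DMSO in each line, with bars of 1 SE, from the fit of 18 libraries (left) and of 16 (right); filled points had an adjusted p under 0.05. Fas lies to the right of 0 in each line in both fits, and the Tnfrsf21 point of Δβ3 moves from 2.77 to -0.25.

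Tnfrsf10b (DR5) is the mouse receptor for TRAIL, at 69767472 to 69784411 on chromosome 14. Its level in pMx was 21.03, 18.98 and 20.18 CPM in DMSO against 26.77, 25.14 and 21.94 in docetaxel, with no overlap, as in 17.4% of tested genes that were higher without overlap in pMx. In hβ3 it was 26.53, 27.77 and 35.97 CPM in DMSO and 30.83, 31.64 and 25.73 in docetaxel, and the ranges overlapped. In Δβ3 the lowest value of each treatment, 11.45 and 15.85 CPM, came from the 2 libraries rich in heart markers. The averaged log2 change was 0.17 ± 0.14 (95% interval -0.13 to 0.47, adjusted p = 0.47), so that a rise of the size seen in Fas lies outside the interval.

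Tnfrsf1a, on chromosome 6 from 125349362 to 125362484, had an averaged change near 0, the smallest of the 8 members with 18 libraries but not with 16, where that of Tnfrsf21 was smaller. Group means lay between 131.5 and 144.8 CPM, and the averaged log2 change was 0.01 ± 0.09 (95% interval -0.18 to 0.21, adjusted p = 0.937). Its lowest single value, 96.81 CPM, was in Δβ3 docetaxel replicate 2, where luminal marker levels were also lowest. Of the 3 lines, none had ranges apart between treatments.

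Tnfrsf12a, on the minus strand of chromosome 17 from 23675445 to 23677468, was lower with docetaxel without passing the test. In hβ3 its level was 45.79, 44.14 and 45.48 CPM in DMSO and 36.73, 38.69 and 38.17 in docetaxel. In Δβ3 it was 62.56, 44.77 and 41.35 CPM in DMSO and 39.41, 24.86 and 33.16 in docetaxel. The docetaxel range was below the DMSO range in both of these lines, as for 14.1% of genes tested in hβ3 and 8.99% in Δβ3, and overlapped with it in pMx. The averaged log2 change was -0.33 ± 0.11 (adjusted p = 0.0647), or -0.19 ± 0.08 with 16 libraries (adjusted p = 0.0645), and the call depended on the setting, since DESeq2 gave an adjusted p of 0.0349.

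Tnfrsf21, on chromosome 17 from 43016555 to 43089189, had 24.86 CPM in Δβ3 docetaxel replicate 2, 2.96 in Δβ3 DMSO replicate 1, 2.12 in pMx docetaxel replicate 1 and 1.47 in pMx DMSO replicate 1. The other 14 cultures lay between 0.125 and 0.637 CPM. Those 4 libraries were also the 4 highest in heart muscle markers, in the same order. The heart marker sum ranged from 395.2 to 1982 CPM in pMx DMSO, 214.7 to 2267 in pMx docetaxel, 421.5 to 5398 in Δβ3 DMSO, 290.6 to 45160 in Δβ3 docetaxel, 210.1 to 480.4 in hβ3 DMSO and 176.4 to 714.4 in hβ3 docetaxel. The fitted change in Δβ3 was 2.77 ± 1.41 on the log2 scale with 18 libraries (adjusted p = 0.243) and -0.25 ± 1.19 with 16 (adjusted p = 0.942). The averaged change likewise moved from 1.01 ± 0.92 to -0.0009 ± 0.56. Without those 2 libraries no response of Tnfrsf21 was detectable at 0.125 to 2.12 CPM.

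**Figure D3:**
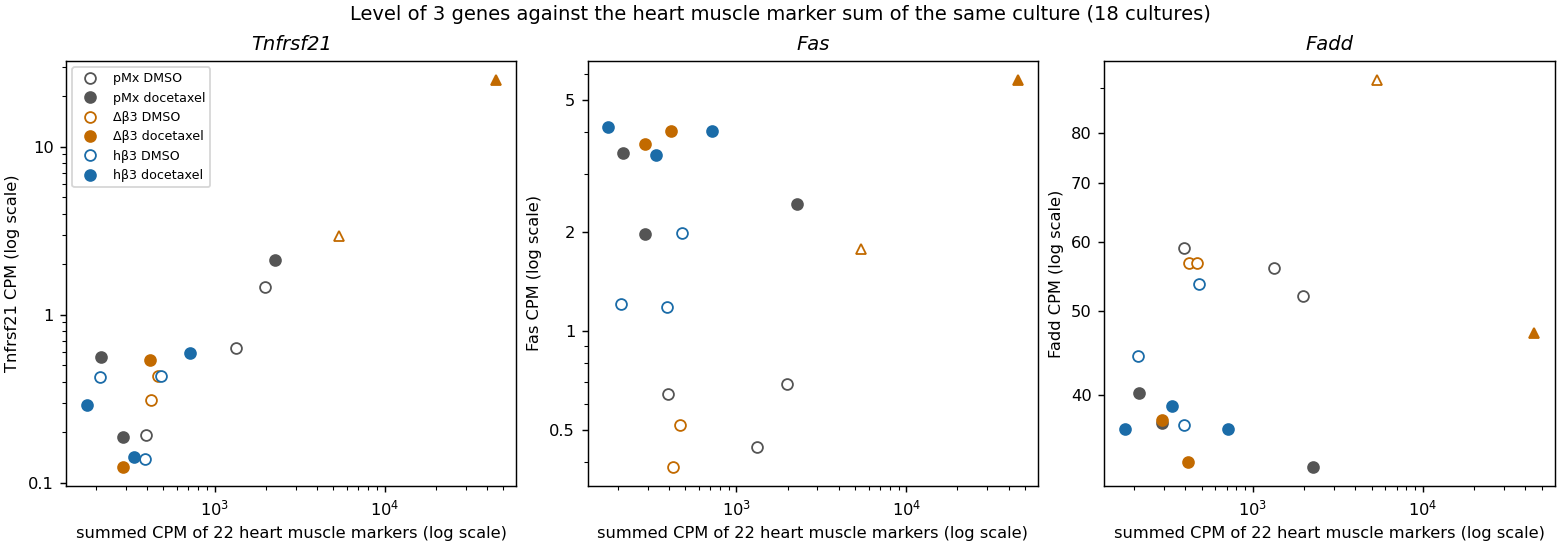
Level of Tnfrsf21, Fas and Fadd in each of 18 cultures against the summed CPM of 22 heart muscle markers in the same culture, both on log axes. Tnfrsf21 climbs with the marker sum to 24.86 CPM at 45160 CPM, whereas the docetaxel cultures of Fas are high at marker sums from 176.4 CPM upwards.

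Beneath the receptors, Fadd fell with docetaxel. Its gene lies on the minus strand of chromosome 7 from 144577318 to 144582463. In pMx its level was 51.9, 56.0 and 59.0 CPM in DMSO and 33.1, 40.2 and 37.2 CPM in docetaxel. In Δβ3 it was 91.9, 56.7 and 56.7 CPM in DMSO and 37.4, 47.1 and 33.5 CPM in docetaxel. In hβ3 it was 37.0, 53.7 and 44.3 CPM in DMSO and 36.6, 38.8 and 36.6 CPM in docetaxel. The docetaxel cultures were below all DMSO cultures in pMx and Δβ3, as for 17.7% and 8.99% of tested genes, and overlapped with them in hβ3. The 3 docetaxel groups had like means, 36.8 ± 3.55 CPM in pMx, 39.3 ± 6.99 in Δβ3 and 37.3 ± 1.30 in hβ3 (SD, n = 3), while the DMSO means were 55.6 ± 3.55, 68.4 ± 20.3 and 45.0 ± 8.37.

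Within lines Fadd was called in Δβ3, where it fell by 0.80 ± 0.19 on the log2 scale (adjusted p = 0.0212). The log2 change was -0.60 ± 0.19 in pMx (adjusted p = 0.106) and -0.27 ± 0.19 in hβ3 (0.791). With 16 libraries it was called in pMx at -0.59 ± 0.11 (adjusted p = 0.000359) and in Δβ3 at -0.67 ± 0.14 (0.00156), and in hβ3 it was -0.25 ± 0.11 (0.151). The call in Δβ3 was lost without Δβ3 DMSO replicate 1, the culture at 91.9 CPM, or without docetaxel replicate 3. It was also lost with only the Δβ3 groups fitted, where 0 of all genes were called. The largest adjusted p of Fadd in Δβ3 over 26 settings was 0.587. The log2 response in hβ3 minus that in Δβ3 was 0.53 ± 0.27 (95% interval -0.04 to 1.10, adjusted p = 0.592), so the lines were not shown to differ. The averaged fall was called in all 25 other settings, with log2 changes from -0.60 to -0.45.

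Casp8, the initiator protease, lies on chromosome 1 from 58795374 to 58847503. In pMx its level was 9.26, 9.81 and 7.48 CPM in DMSO and 6.56, 6.64 and 6.28 in docetaxel, with no overlap, as in 17.7% of tested genes that were lower without overlap in pMx. In hβ3 it was 9.08, 7.81 and 8.66 CPM in DMSO and 9.55, 6.84 and 9.5 in docetaxel, with overlap. The log2 change was -0.45 ± 0.21 in pMx (adjusted p = 0.319), and averaged over the lines it was -0.25 ± 0.12 (95% interval -0.50 to 0.005, adjusted p = 0.186).

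Cflar, the inhibitor in the same complex, lies close to Casp8 on chromosome 1, from 58711508 to 58758884. Its averaged log2 response was 0.18 ± 0.11 (adjusted p = 0.33). In DMSO its level was 8.04, 8.06 and 9.01 CPM in hβ3, 4.64, 5.12 and 4.85 CPM in Δβ3 and 6.67, 6.31 and 5.29 CPM in pMx. All 3 hβ3 cultures lay above all DMSO cultures of both other lines, as for 11.4% of tested genes. Of its 6 transcript models, 4 had no count at all, and the one of 1106 bases held 91.3% of the counts, and the one of 2018 bases the other 8.67%. No source used here says how reads shared by several models were counted, so the values cannot be assigned to 1 isoform.

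The lines were also compared in DMSO. With 1 line per construct, integrin β3 status cannot be told apart from other differences between the lines. The same DMSO cultures served in the treatment comparisons above. Other measures differed between these lines too. In DMSO, endothelial markers (3 of 8 tested, Tek without counts) summed to 14.2 to 16.12 CPM in hβ3, 42.36 to 67.08 in pMx and 49.31 to 103.4 in Δβ3. Fibroblast markers (7 of 10 tested, none without counts) summed to 14.33 to 22.44 CPM in hβ3, 25.73 to 70.46 in pMx and 33.75 to 196.9 in Δβ3. Rn45s took 10.9% to 33% of counts in hβ3 DMSO, 8.36% to 9.81% in pMx and 9.59% to 41.5% in Δβ3. Their part in the differences below was not tested. Cflar was higher in hβ3 than in Δβ3 by 0.78 ± 0.19 on the log2 scale (adjusted p = 0.012), and by 0.73 ± 0.19 with 16 libraries (0.0063). The call held in 23 of 26 other settings and was lost without hβ3 DMSO replicate 3 (adjusted p = 0.0627), without a filter (0.0558) and with only the 2 groups fitted (0.0694). Against pMx the log2 difference was 0.46 ± 0.19 (adjusted p = 0.182). Fadd was lower in hβ3 than in Δβ3, with a log2 difference of -0.60 ± 0.19 (adjusted p = 0.0467), and of -0.35 ± 0.12 with 16 libraries (0.0408). This call held in 10 of 26 other settings. It was lost with a replicate block (adjusted p = 0.0589), without a filter (0.072) and with only the 2 groups fitted (0.165). Of 18 libraries left out singly it held for 5, which were Δβ3 DMSO replicates 2 and 3, Δβ3 docetaxel replicates 2 and 3 and hβ3 DMSO replicate 2; without Δβ3 DMSO replicate 1 the log2 difference was -0.35 (0.237). Of all genes, 13.1% were called between hβ3 and Δβ3, 6.27% higher and 6.86% lower, against 2 of the 8 members; with 16 libraries 23.3% of all genes were called and 3 members.

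Between hβ3 and pMx in DMSO no member was called by DESeq2, when it called 1438 of all genes. With 18 libraries no member was called by edgeR either, although 3 had an unadjusted p under 0.05 and 9.02% of all genes were called. With 16 libraries 4 members were, when 26.8% of all genes were: Fas by 1.28 ± 0.36 (adjusted p = 0.00689), Tnfrsf10b by 0.56 ± 0.12 (0.000994) and Tnfrsf12a by 0.36 ± 0.12 (0.0306) were higher in hβ3, and Fadd was lower, at -0.33 ± 0.11 (0.0272). The 6 cultures of this comparison are in both fits. The spread over all groups was estimated anew, and the filter, TMM factors and adjustment were also redone. Their separate parts in the changed calls were not tested. The ranges of Fas, Tnfrsf10b, Tnfrsf12a and Cflar in hβ3 lay above those in pMx, 4 of 8 members against 19.8% of tested genes. Fas was also higher in hβ3 than in Δβ3 with 16 libraries, by 1.67 ± 0.46 (adjusted p = 0.00547), but not with 18, where the log2 difference was 0.73 ± 0.46 (0.338); the library that left was the Δβ3 DMSO culture at 1.78 CPM. Between Δβ3 and pMx in DMSO no member was called by edgeR with 18 or 16 libraries, and 1 had an unadjusted p under 0.05. Of all genes, 0.0412% were called with 18 libraries and 0.332% with 16. DESeq2 called no member there either, when it called 34 of all genes.

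Most of the ligands of these receptors were barely seen. Of 8 listed death ligands, 2 were tested, and Fasl, Tnf, Ltb and Tnfsf14 had no count in any library. Apaf1, a core gene of the mitochondrial caspase pathway, was at 0 as well, as were 4 of the 6 Cflar models, so a gene without counts is not shown to be silent. Tnfsf10 (TRAIL), the ligand of Tnfrsf10b, rose by 1.78 ± 0.56 on the averaged log2 scale (adjusted p = 0.041; 1.78 ± 0.31 and 4.92e-05 with 16 libraries). In pMx it went from 1.13, 0.382 and 0.645 CPM in DMSO to 4.13, 2.34 and 2.77 in docetaxel. The log2 change there was 2.11 ± 0.87 (adjusted p = 0.256), and 2.13 ± 0.41 with 16 libraries (0.000335). In Δβ3 it was 2.33 ± 0.82 (0.104), and 2.32 ± 0.54 with 16 libraries (0.00332). In hβ3 Tnfsf10 had 2 to 7 counts in every library and a log2 change of 0.90 ± 1.16 (adjusted p = 0.967). Its highest value, 21.6 CPM, was again in Δβ3 docetaxel replicate 2, and its second highest, 4.24 CPM, in Δβ3 DMSO replicate 1. The other tested ligand was Tnfsf12 (TWEAK), which binds Tnfrsf12a. Its averaged log2 change was 0.42 ± 0.16 and did not pass (adjusted p = 0.0884), nor did it with 16 libraries. In DMSO with 16 libraries both tested ligands were called lower in hβ3 than in pMx, when 26.8% of all genes were called.

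Among 16 other TNF receptors and decoys, 8 were tested and 4 rose with docetaxel on average, when 7.9% of all genes were called higher. With 16 libraries 5 rose, when 30.1% of all genes were called in either direction; the one added was Tnfrsf11a (RANK), the receptor of RANKL, at 0.93 ± 0.22 on the log2 scale (adjusted p = 0.00162). Tnfrsf11b, which encodes osteoprotegerin, a soluble decoy for RANKL and TRAIL, rose by 1.61 ± 0.29 (adjusted p = 0.001). Its level was 6.14 ± 0.631 CPM in pMx DMSO and 17.97 ± 0.435 in pMx docetaxel (SD, n = 3). In hβ3 it was 0.377 ± 0.207 and 1.49 ± 0.549 CPM. The log2 rise was 1.55 ± 0.45 in pMx (adjusted p = 0.0757) and 1.95 ± 0.58 in hβ3 (0.137). With 16 libraries both were called, at 1.56 ± 0.19 (1.32e-06) and 1.96 ± 0.37 (0.000297). In DMSO Tnfrsf11b was lower in hβ3 than in pMx by a log2 difference of -3.98 ± 0.55 (adjusted p = 0.00015). Against Δβ3 the difference was -3.94 ± 0.56 (0.000139). The hβ3 DMSO libraries held only 2, 8 and 7 of its counts. Eda2r, a receptor of ectodysplasin A2, rose by 1.09 ± 0.21 (0.00244), Ngfr, the p75 neurotrophin receptor, which has a death domain, by 0.82 ± 0.13 (0.00049), and Tnfrsf1b, the second TNF receptor, by 0.33 ± 0.09 (0.0159). The median log2 change of the list was 0.51, against 0.06 over all genes.

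Of 26 partners of the receptor complexes and ubiquitin enzymes, 22 were tested and edgeR called none, when 15.6% of all genes were called. Their median log2 change was 0.05, with 2 at an unadjusted p under 0.05. DESeq2 called 1 of them, as higher, when it called 2363 of all genes. With 16 libraries edgeR called Fbxo10 and Rnf31 as higher and Faf1 and Otulin as lower, 4 of 23 genes when 30.1% of all genes were. Of 17 caspases and executioner steps, 15 were tested and 1 was called, against the same 15.6%. Parp1, a DNA repair enzyme that executioner caspases cleave, fell by 0.37 ± 0.07 on average (adjusted p = 0.00235). In pMx its level went from 563.6 ± 20.3 to 436.7 ± 7.55 CPM (SD, n = 3). That fall was not called with 18 libraries (adjusted p = 0.137) but was with 16 (6.24e-05). In Δβ3 it was called with 18 and with 16 (0.0135 and 0.00419), and in hβ3 with neither (0.858 and 0.139). The median log2 change of that list was 0.04, and DESeq2 called 1 gene higher and 1 lower, against its 2363 over all genes. With 16 libraries 4 of the 15 were called, when 30.1% of all genes were. Besides Parp1 these were Bax, which permeabilises the mitochondrial membrane, at 0.31 ± 0.08 (adjusted p = 0.00216), the executioner Casp6 at 0.27 ± 0.08 (0.012) and Cycs, cytochrome c, at -0.34 ± 0.07 (0.000523). Of 10 genes of necroptosis and the inflammatory caspases, 3 were tested and 1 was called, against 15.6% of all genes. Zbp1, a sensor of Z-form nucleic acid that can start necroptosis, rose by 2.29 ± 0.42 (0.000759). With 16 libraries 2 of the 3 were called higher, when 30.1% of all genes were called in either direction. The other was Casp1, the inflammasome protease, at 0.50 ± 0.09 (6.6e-05). DESeq2 also called 2 of the 3 higher, against its 2363 over all genes in either direction. The counts of Zbp1 were small, from 1 to 8 in the DMSO libraries and from 3 to 40 in docetaxel.

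NF-kB is the survival arm of Tnfrsf1a signalling. Of 18 of its target genes, 12 were tested, and 3 rose and 1 fell, when 15.6% of all genes were called in either direction. The median log2 change of the list was 0.27, against 0.06 over all genes. By line the list median was 0.40 in pMx, 0.35 in Δβ3 and -0.09 in hβ3. Over all genes it was 0.003, 0.11 and -0.002. Whether the list as a whole differed between lines was not tested. With 16 libraries 4 rose and 1 fell on average, against 30.1% of all genes. The gene added was Vcam1, an adhesion molecule, at 0.29 ± 0.05 (adjusted p = 0.000127). Ccl5 and Ccl2, which encode chemokines, rose by 0.87 ± 0.23 (adjusted p = 0.0138) and 0.81 ± 0.19 (0.00801). Nfkbia, the inhibitor IκBα and itself a target, rose by 0.24 ± 0.07 (0.022), and Ier3, an early response gene, fell by 0.38 ± 0.11 (0.0249). Nfkbia rose in pMx by 0.55 ± 0.12 (0.0135), from 61.19, 58.79 and 64.16 CPM to 93.23, 88.8 and 87.56 CPM, and in hβ3 it went from 105.4, 106.5 and 110.8 CPM to 89.5, 101 and 99.88 CPM, a log2 change of -0.15 ± 0.12 (0.832).

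**Figure D4:**
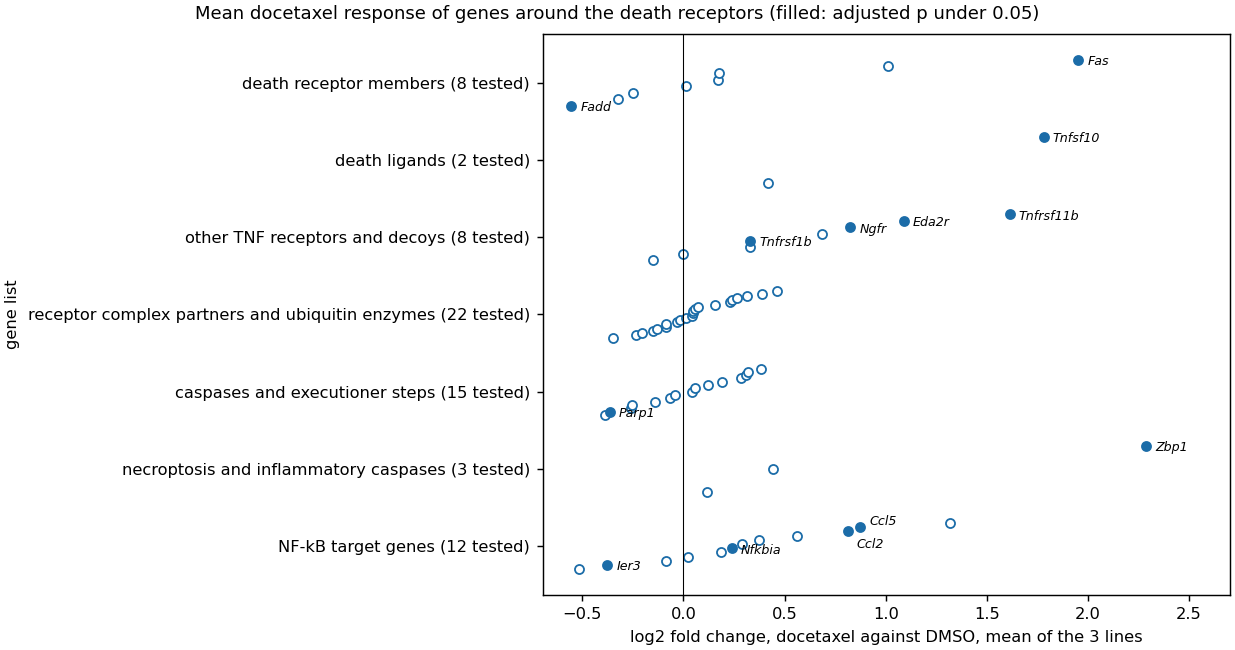
Averaged log2 fold change between docetaxel and DMSO of the tested genes in each list, 1 point per gene, filled where the adjusted p was under 0.05 in the fit of 18 libraries. The complex partners cluster around 0 with no filled point, while Fas, Tnfsf10, Tnfrsf11b and Zbp1 lie furthest to the right.

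Across the 18 libraries, the genes with the pattern most like that of Fas, by Pearson correlation of log2 CPM among 8479 genes with a mean of at least 2 CPM, were Dtx4 (r = 0.92), Btg2 (0.908) and Arap2 (0.895). With 16 libraries these were 0.92, 0.912 and 0.942. The genes most like Fadd were Samd1 (0.944), E130012A19Rik (0.935) and Pagr1a (0.931), at 0.904, 0.896 and 0.893 with 16. The points share the treatment, the line and the library, and these values are descriptions.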

How the data were processed

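RNA from 18 cultures was sequenced after removal of ribosomal RNA. The authors deposited 1 table of unnormalized read counts per transcript model, made with HISAT2 and featureCounts on mm10 per the submitters' processing notes; no source used here states their versions, the annotation, the strand setting or how reads shared by models were handled. The table has 63759 models for 32699 symbols, and counts were summed per symbol, which concerned 13170 symbols. It also gives each model's length in bases, a unit of its own, used to name models. Coordinates come from GENCODE for mm10 and promoters from RefSeq on GRCm38.p6.

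Tests used R 4.3.3 and edgeR 4.0.16: filterByExpr, TMM factors and the robust two-sided quasi-likelihood test, with 1 coefficient per group over 18 libraries and Benjamini-Hochberg adjustment over 12145 genes, or 12356 with 16 libraries. A gene was called at an adjusted p under 0.05. Levels are counts per 1e+06 of the scaled library size, with the SD over 3 cultures; 95% intervals come from the moderated SE and cover the spread between cultures. The script was tested on simulated data. Alternatives were RLE size factors, no filter, 16 libraries, removal of Rn45s and heart markers, the model with the highest count, a replicate block, only the groups compared, DESeq2 1.42.0 and leaving out each library.

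The members and gene lists were chosen with earlier results of these data known. Named genes are the 8 members, up to 4 called genes per list with the smallest p, the 3 genes most like each member called in a line, and Itgb3. Tnfsf12, Traf5 and the pathway genes called only with 16 libraries were named after their values were seen.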

Additional observations from a re-analysis of the deposited data

Results flagged for a closer look

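The docetaxel response of Nfkbia stood out because its culture ranges lay apart in each line but not on the same side. The share of all genes with that joint pattern was not counted. Every docetaxel culture was above every DMSO culture in pMx, as for 17.4% of tested genes, and in Δβ3, as for 9.16%, and every one was below in hβ3, as for 14.1%. The change was called in pMx, at 0.55 ± 0.12 on the log2 scale (SE, edgeR adjusted p = 0.0135), but not in Δβ3 at 0.32 ± 0.12 (0.0984) or in hβ3 at -0.15 ± 0.12 (0.832). With 16 libraries it was called in Δβ3 at 0.48 ± 0.09 (0.000904) and still not in hβ3 at -0.14 ± 0.07 (0.28), so a fall in hβ3 was not shown. The log2 response in hβ3 minus that in pMx was -0.70 ± 0.16 (SE), and in hβ3 minus that in Δβ3 it was -0.48 ± 0.16. Neither difference passed with 18 libraries (edgeR adjusted p = 0.427 and 0.541). With the 16 libraries left without the heart-marker-rich ones they were -0.69 ± 0.11 (adjusted p = 0.000505) and -0.61 ± 0.12 (0.0095). Both passed, when 2.3% and 0.591% of all genes were called. In DMSO the level was 61.38 ± 2.69 CPM in pMx, 87.06 ± 13.67 in Δβ3 and 107.6 ± 2.85 in hβ3 (SD, n = 3). Traf5, a listed partner of the receptor complexes, was also called for hβ3 minus pMx with 16 libraries, as higher.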

How the results depend on the processing

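The averaged calls of Fas and Fadd held in all 25 other settings. Tnfrsf12a was called as well in 4 of the 25, DESeq2 among them, which called 3 members on average and 3 in Δβ3. With 16 libraries the number of members called was 2 in pMx, 1 in hβ3 and 4 for hβ3 against pMx in DMSO. In the last of these 3312 of all genes were called. With only the groups compared it was 2 in pMx, 0 in Δβ3 and 1 in hβ3, when 2239, 0 and 1388 of all genes were called. In DMSO that setting called 3 members for hβ3 against pMx but 0 against Δβ3, when 2835 and 830 of all genes were called. DESeq2 called 1 in hβ3, and without a filter 0 were called for hβ3 against Δβ3 in DMSO, when 1243 of all genes were. Leaving out 1 library gave 0 to 2 in pMx, 1 to 3 in Δβ3, 0 to 1 in hβ3, and in DMSO 0 to 2 for hβ3 against pMx but 0 to 3 against Δβ3. The counts over all genes then ran from 151 to 1205 in pMx, 578 to 1675 in Δβ3 and 62 to 554 in hβ3. In DMSO they ran from 699 to 1959 for hβ3 against pMx and from 962 to 2857 against Δβ3. Same-numbered cultures correlated from -0.503 to 0.459, over 0.1 in 4 of 9 pairs, so the numbers were not taken to pair samples. With a replicate block 1 member, Cflar, was called for hβ3 against Δβ3 in DMSO, when 1433 of all genes were. Fadd was lost there (adjusted p = 0.0589), and in no other comparison did the count of members change. Over all genes, the count called with 18 and with 16 libraries was 1891 and 3715 for the average, 440 and 2626 in pMx, 834 and 1391 in Δβ3, and 141 and 1539 in hβ3, against 2363, 839, 1579 and 372 by DESeq2.

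Changes of sign came only in log2 values that no main test called, and their cause was not tested. With 16 libraries Tnfrsf21 was -0.000928 on average, -0.25 in Δβ3, 0.00951 in hβ3, 0.26 and -0.49 for the responses of hβ3 minus Δβ3 and Δβ3 minus pMx, and -0.98 for Δβ3 against pMx in DMSO, where Fas was -0.38 and Tnfrsf10b 0.20; Tnfrsf1a was 0.0319 in Δβ3, and Tnfrsf12a 0.0528 for hβ3 against Δβ3. Without a filter Tnfrsf1a was -0.00131 on average, Tnfrsf21 0.0031 in hβ3 and Cflar 0.0284 for hβ3 minus pMx. Tnfrsf21 in hβ3 was also 0.000312 with the highest model, 0.0744 with the block and 0.019 with DESeq2; Tnfrsf1a for hβ3 minus pMx was -0.00392 without Rn45s and heart markers, and Casp8 for Δβ3 minus pMx -0.0327 with the highest model.

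Leaving out 1 library changed the sign within these ranges. Averaged: Tnfrsf1a -0.0363 to 0.0749, Tnfrsf21 -0.56 to 1.59. In pMx: Tnfrsf12a -0.25 to 0.0367, Tnfrsf21 -1.09 to 1.08, Cflar -0.0602 to 0.22. In Δβ3: Tnfrsf10b -0.00038 to 0.44, Tnfrsf1a -0.25 to 0.0826, Tnfrsf21 -1.92 to 4.48. In hβ3: Tnfrsf10b -0.10 to 0.13, Tnfrsf21 -0.61 to 0.37, Casp8 -0.0628 to 0.16. Response, hβ3 minus pMx: Tnfrsf1a -0.0751 to 0.14, Tnfrsf21 -1.09 to 1.09, Cflar -0.14 to 0.14. Response, hβ3 minus Δβ3: Tnfrsf1a -0.00298 to 0.33, Tnfrsf21 -4.47 to 1.92. Response, Δβ3 minus pMx: Fas -0.16 to 1.16, Tnfrsf10b -0.30 to 0.16, Tnfrsf1a -0.31 to 0.0202, Tnfrsf21 -2.17 to 4.22, Fadd -0.35 to 0.0764. In DMSO: hβ3 against pMx, Tnfrsf1a -0.16 to 0.0322 and Casp8 -0.16 to 0.0285; hβ3 against Δβ3, Tnfrsf12a -0.24 to 0.0541; Δβ3 against pMx, Fas -0.39 to 0.93, Tnfrsf10b -0.26 to 0.20, Tnfrsf21 -0.996 to 1.51. Depth limits Fas, with 5 to 59 counts a library, and Tnfrsf21, with 2 to 160.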
